A study of Mus musculus with 20 samples.

Results

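The 33 genes described here were the protein-coding genes of cytochrome P450 families 1 to 4 that were expressed in the renal cortex of male C3H/HeJ mice. They were chosen by symbol and by a mean of at least 0.5 CPM, a gene's reads scaled to the gene counts of its library, over all 20 libraries, out of 81 protein-coding genes of these families among 43430 annotated genes. Cyp3a13 (0.534 CPM), Cyp2j7 (0.818) and Cyp2f2 (0.992) lay just inside that minimum, and Cyp4a32 (0.323), Cyp2j8 (0.296) and Cyp4f18 (0.232) just outside. Every member also passed the filter on low counts, so all 33 were tested. Every mouse received a high-fat diet (HFD) from 10 weeks of age. WT mice, and Sweet Pee (SP) mice that carry a missense mutation in Slc5a2, the gene of the glucose transporter SGLT2, were compared. After 8 weeks of HFD they received placebo or MAT2Ai, an inhibitor of the S-adenosylmethionine synthetase MAT2A, the E isomer of 4-(2-chloro-6-fluorostyryl)-N-methylaniline, at 10 mg/kg by intraperitoneal injection 3 times a week for 8 weeks, with 5 mice in each of the 4 groups.

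Cytochrome P450 enzymes are haem proteins that insert oxygen into lipids, steroids and foreign compounds, with electrons passed to them by the reductase encoded by Por. Members of families 1 to 3 are best known for handling drugs and toxicants, and several of the Cyp2c and Cyp2j enzymes make epoxides of arachidonic acid. Family 4 enzymes hydroxylate fatty acids, and the Cyp4a genes are classic targets of the nuclear receptor PPAR alpha. In the mouse kidney most of these transcripts are made by the proximal tubule, and several differ between the sexes.

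The stretches upstream of 4 genes are shown because these genes carry the results: Cyp2d9 and Cyp2e1 were the called members, Cyp4b1 was the most abundant, and Cyp2d26 is a neighbour of Cyp2d9 that was named for its level. They come from RefSeq windows of 250 bases before a start (GRCm38.p6), with bases inside annotated exons left out. Capitals mark whole matches, on either strand, to any of 9 letter patterns searched. The patterns were the HNF1 core GTTAAT, the nuclear receptor core AGGTCA, that core repeated after 1 free base, the looser repeat in which each copy reads AGGNCA, the xenobiotic response core GCGTG, the steroid receptor core AGAACA, the STAT pattern TTCNNNGAA, the TATA box TATAAA and the CCAAT box. The repeats overlap the single core.
Cyp2d26, chr15:82794295-82794495, minus strand: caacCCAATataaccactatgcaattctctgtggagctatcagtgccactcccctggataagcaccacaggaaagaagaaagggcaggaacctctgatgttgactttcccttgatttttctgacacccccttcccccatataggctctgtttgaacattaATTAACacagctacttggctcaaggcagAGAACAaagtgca
Cyp2d9, chr15:82452127-82452333, plus strand: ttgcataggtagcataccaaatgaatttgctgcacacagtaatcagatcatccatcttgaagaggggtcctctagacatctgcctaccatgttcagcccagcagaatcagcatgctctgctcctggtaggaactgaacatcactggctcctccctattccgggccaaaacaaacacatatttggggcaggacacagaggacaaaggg
Cyp2e1, chr7:140763569-140763738, plus strand: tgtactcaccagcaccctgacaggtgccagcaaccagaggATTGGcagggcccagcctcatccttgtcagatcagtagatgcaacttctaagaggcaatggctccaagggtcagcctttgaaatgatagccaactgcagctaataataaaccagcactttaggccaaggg
Cyp4b1, chr4:115647724-115647971, minus strand: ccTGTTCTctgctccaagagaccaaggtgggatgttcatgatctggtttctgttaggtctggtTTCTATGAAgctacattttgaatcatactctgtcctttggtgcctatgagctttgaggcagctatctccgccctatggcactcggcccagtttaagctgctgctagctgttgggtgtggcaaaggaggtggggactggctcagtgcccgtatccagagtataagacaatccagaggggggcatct

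The promoter table held 22 of the 33 members, with 26 windows, and among the members it lacked were every Cyp4a gene and Cyp2d22 and Cyp2d12. Over the full 250 bases, TATAAA lay in 7 of 26 member windows against 12.4% of all 32851 windows, at 28 bases before the start in Cyp2d9 and at 31 bases in Cyp2d26 and Cyp2e1. GTTAAT lay in 4 member windows against 6.43% of all, CCAAT in 11 against 33.8%, GCGTG in 9 against 28.2%, AGAACA in 3 against 16.1%, TTCNNNGAA in 3 against 7.02% and AGGTCA in 2 against 14.0%. The exact repeat of AGGTCA lay in 0 member windows and in 0.0335% of all. The looser repeat of AGGNCA lay in 1 member window, that of Cyp2d9 at 54 bases before the start, and in 0.338% of all. The Cyp2d9 match lies partly in bases left out of the stretch shown, which holds no whole match. The genes shown and the marking were chosen after the matches were known.

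Some libraries stood apart before any P450 gene was compared. Slc5a2 was at 229 to 518 CPM in the 10 WT libraries and at 40.2 to 85.9 in 8 SP libraries, but at 241 and 282 in the libraries labelled SP placebo 1 and 2. WT MAT2Ai 2 had 10 tubular injury markers at a summed 8285 CPM and 8 proximal tubule markers at 14198, whereas injury markers reached at most 973 and proximal tubule markers were at least 18059 in the other 19 libraries. Gene counts per library ran from 53296824 to 79339949, with 12.4% to 22.2% of them mitochondrial. Levels below are CPM scaled with TMM factors, which correct for differences in library composition. In whole cortex, fewer cells of a type and less RNA per cell cannot be told apart.

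Cyp4b1 and Cyp2e1 dominated the P450 transcripts of the cortex. Together the members held 1.10% to 1.79% of the gene counts of a library. Of their summed CPM, Cyp4b1, a fatty acid and xenobiotic hydroxylase, made 40.0%, Cyp2e1, the ethanol and ketone oxidizing enzyme, 30.5%, and the 6 Cyp2j genes 17.3%. Per kb of exon the order of mean levels began with Cyp4b1 (2690 CPM per kb), Cyp2e1 (2149), the arachidonate epoxygenase gene Cyp2j5 (690), the steroid hydroxylase gene Cyp2a4 (315) and the fatty acid hydroxylase gene Cyp4a12a (285). At the other end were Cyp2u1 (0.390) and Cyp3a13 (0.180), the sole member of its family to pass. Cyp4f13 varied least between libraries, with a coefficient of variation of 8.17%, followed by Cyp2j5 with 9.60%. Cyp4a14 varied most, at 264%, and its level was 63.0 CPM in WT MAT2Ai 2 and at most 9.82 in any other library.

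**Figure D1:**
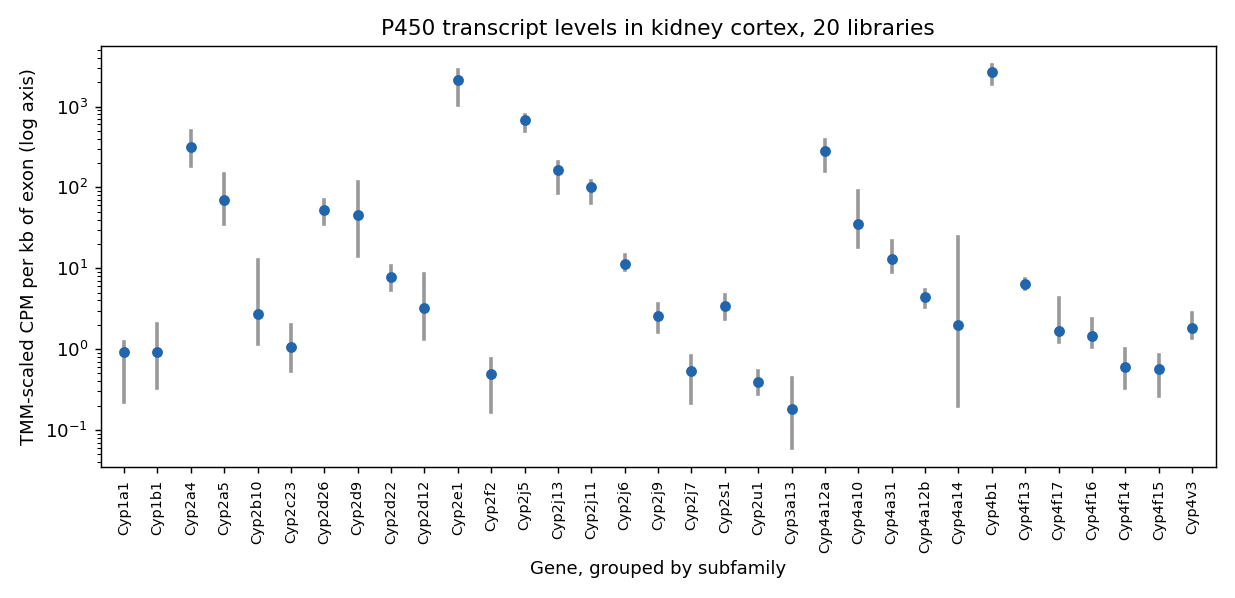
Mean level of each of the 33 P450 genes in TMM-scaled CPM per kb of exon, on a log axis, with genes grouped by subfamily. Points are means over 20 libraries and grey bars run from the lowest to the highest library, and Cyp4b1 and Cyp2e1 stand highest at 2690 and 2149 CPM per kb.

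Whether loss of SGLT2 function goes with another P450 programme was asked by comparing SP with WT mice. Averaged over treatments, 2 of 33 members passed an adjusted p of 0.05, against 1.33% of the 16152 genes tested. Cyp2e1 rose (0.607% of all genes rose) and Cyp2d9 fell (0.724% fell) in SP cortex. No member's levels separated all WT from all SP libraries, as 0.0371% of all genes did. Over the 33 members the median log2 fold change was -0.15, against -0.0093 over all genes tested, with 20 members negative and 13 positive. Under placebo alone it was -0.0083, against 2.07e-05 over all genes, with 18 negative and 15 positive. After MAT2Ai alone it was -0.21, against -0.018, with 21 negative and 12 positive. Without WT MAT2Ai 2, 3 and 4 the median averaged over treatments was -0.030, against -0.0030. Without the same libraries the median after MAT2Ai alone was 0.068, against -7.1e-05. It was -0.059, against -0.0016, without WT MAT2Ai 2 only. At an unadjusted p of 0.05, 4 members were higher (8.61% of all genes) and 11 lower (11%), 15 in all against 19.6%. Injury markers were negative for 10 of 10 tested in the same comparison and macrophage and lymphocyte markers for 9 of 9, 2 of the latter called lower. Those were C1qb and C1qc, each called in 16 of the 20 fits without 1 library. Both were lost without SP placebo 3 or 4, SP MAT2Ai 5 or WT placebo 2, with edgeR adjusted p of at most 0.0582 and 0.0627. The injury list summed to 507 to 595 CPM in WT placebo, 539 to 8285 in WT MAT2Ai, 451 to 627 in SP placebo and 506 to 717 in SP MAT2Ai. The macrophage and lymphocyte list summed to 56.1 to 67.9, 50.9 to 82.4, 45.1 to 82.5 and 26.6 to 55.2 CPM in the same order. Of 6 adipocyte markers 3 were tested, 0 of them positive, with a median of -3.30 and Cfd, the gene of adipsin, called lower (edgeR adjusted p = 0.0408, and called in 9 of the 20 fits without 1 library, those without WT placebo 1, 4 or 5, WT MAT2Ai 1, 2, 4 or 5, SP placebo 1 or SP MAT2Ai 4). The adipocyte list summed to 14.8 to 38.6, 15.8 to 53.9, 14.7 to 35.7 and 11.1 to 18.1 CPM in the same order, and the part of any of these lists in the P450 values was not tested.

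Cyp2d9 encodes a steroid hydroxylase that is known for higher expression in male than in female liver and kidney. Its level in WT placebo was 308, 157, 177, 180 and 121 CPM, and in SP placebo 123, 71.4, 101, 74.8 and 113 CPM. After MAT2Ai it was 123, 133, 125, 164 and 99.5 CPM in WT mice and 37.2, 71.6, 64.9, 97.8 and 66.5 CPM in SP mice. The genotypes did not overlap after MAT2Ai, as for 3.41% of all genes (1.68% lower in SP), and under placebo they overlapped by the lowest WT library and the highest SP library alone. The mean was 159 ± 58.7 CPM (SD, n = 10) in WT and 82.1 ± 26.0 (SD, n = 10) in SP mice. The log2 fold change was -0.95 ± 0.17 (SE) with an edgeR adjusted p of 0.0202. It was also called in this average under every other setting run, including each library left out in turn, where the adjusted p ran from 0.00704 to 0.0464.

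Within a treatment Cyp2d9 was called under fewer settings. After MAT2Ai the log2 fold change was -0.93 ± 0.24 (SE) with an edgeR adjusted p of 0.0488, the 1 member called there against 1.84% of all genes (1.2% lower). At an unadjusted p of 0.05, 12 members passed, against 21.8% of all genes. The Cyp2d9 call was lost without SP MAT2Ai 1, 2, 3 or 5 or without WT MAT2Ai 2, 3 or 4, and its adjusted p ran from 0.0304 to 0.126 over the 10 libraries left out. It was also lost with RLE factors (0.0502), no filter on low counts (0.0518) and the compared groups alone (0.177). The Cyp2d9 call was likewise lost without SP placebo 1 and 2 (0.0611) and without WT MAT2Ai 2, 3 and 4 (0.290). These WT MAT2Ai libraries were chosen for leaving out because they were known to be highest on the first principal component, at 89.7, 21.8 and 19.4. Only WT MAT2Ai 2 stood apart there, as all other libraries lay between -22.8 (SP placebo 2) and 21.8. Under placebo the size was alike at -0.96 ± 0.24, but with 0 genes called anywhere the adjusted p was 0.855 (unadjusted 0.00065), and the next members by p were Cyp2d12 (-0.75 ± 0.34), Cyp2c23 (-0.63 ± 0.30) and Cyp2d26 (-0.34 ± 0.16), each with an edgeR adjusted p of 1. Without WT placebo 1, Cyp2d12 was at -0.43 and Cyp2c23 at -0.35. Over the 10 libraries left out in turn, Cyp2d9 under placebo ran from -1.09 to -0.72. Under placebo 4 members passed an unadjusted p of 0.05, against 3.75% of all genes. Of the 100-base stretches of a Cyp2d9 transcript, 9.86% also occur in other genes, among them Cyp2d10 and Cyp2d12, so reads from those stretches could have been left uncounted.

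The other Cyp2d genes, which lie near Cyp2d9 on chromosome 15, were also negative in SP mice, and none was called in the main fit. Cyp2d12 was at 15.7 ± 7.72 CPM (SD, n = 10) in WT and 9.53 ± 3.47 in SP mice, a log2 fold change of -0.71 ± 0.24 (edgeR adjusted p = 0.117). Cyp2d26 was at 104 ± 16.1 and 83.4 ± 17.2 CPM, a log2 fold change of -0.32 ± 0.11 (edgeR adjusted p = 0.126). Cyp2d22 was at 33.6 ± 4.16 and 27.7 ± 4.16 CPM, a log2 fold change of -0.28 ± 0.08 (edgeR adjusted p = 0.0852). The ranges of the genotypes overlapped for each of these 3 genes. Among fits with libraries left out, Cyp2d22 was called without SP MAT2Ai 4 (0.0197), Cyp2d26 without WT MAT2Ai 4 (0.0494) and Cyp2d12 without WT MAT2Ai 2, 3 and 4 (0.0353).

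**Figure D2:**
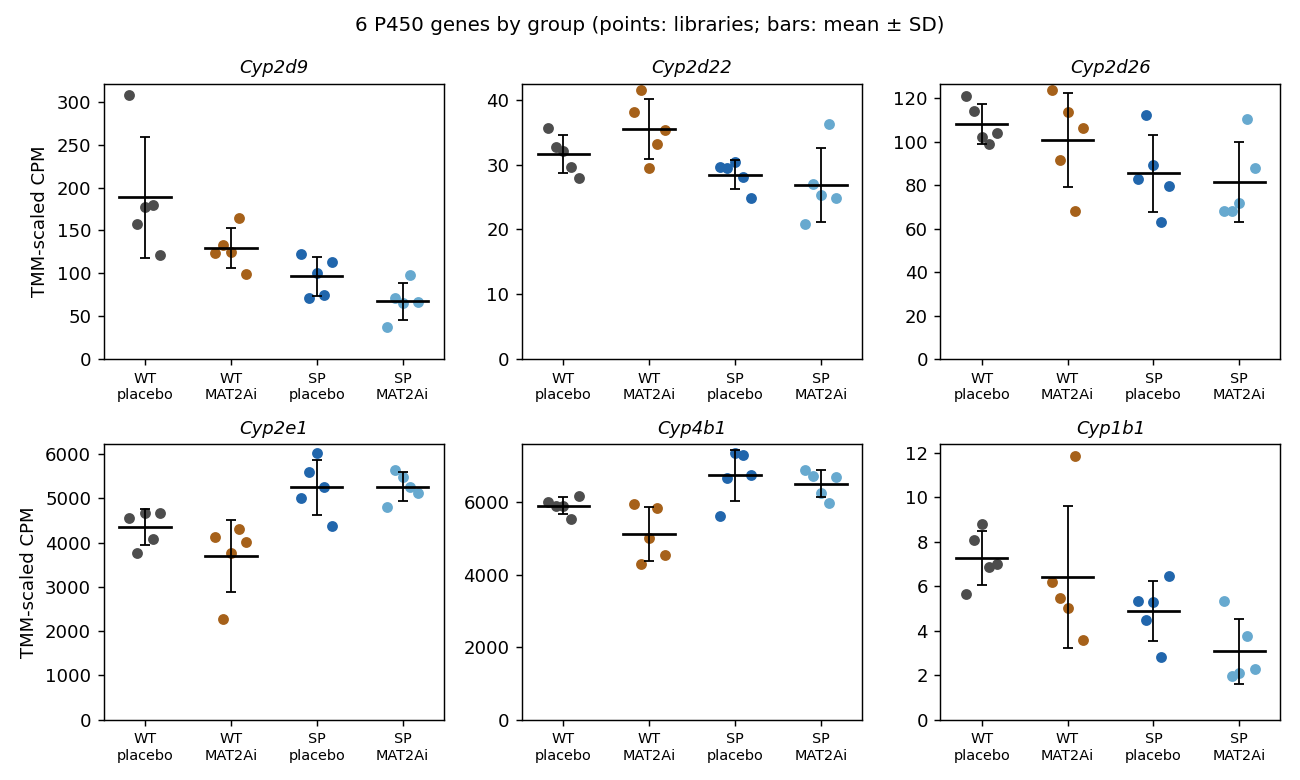
Levels in TMM-scaled CPM of Cyp2d9, Cyp2d22, Cyp2d26, Cyp2e1, Cyp4b1 and Cyp1b1 in the 4 groups, with 1 point per library and bars for the mean ± SD (n = 5). Cyp2d9 is lower in SP than in WT mice, with WT placebo 1 highest at 308 CPM, and Cyp2e1 is lowest in WT MAT2Ai 2 at 2272 CPM.

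Cyp2e1 was higher in SP cortex. Under placebo its level was 4557, 3769, 4664, 4079 and 4677 CPM in WT mice and 5000, 5598, 6026, 5246 and 4379 CPM in SP mice. After MAT2Ai it was 4117, 2272, 3753, 4300 and 4008 CPM in WT mice and 4802, 5643, 5481, 5257 and 5121 CPM in SP mice. The genotypes did not overlap after MAT2Ai (1.72% of all genes higher in SP), and under placebo SP placebo 5 lay within the WT range. Averaged over treatments the log2 fold change was 0.39 ± 0.09 (SE) with an edgeR adjusted p of 0.0434, from 4020 ± 701 CPM (SD, n = 10) in WT to 5255 ± 468 in SP mice.

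The Cyp2e1 call was kept in 6 of the 20 fits that left out 1 library (WT MAT2Ai 1, 2, 4 or 5, SP placebo 5 or SP MAT2Ai 4), with adjusted p from 0.0150 to 0.102 and log2 fold changes from 0.32 to 0.42, and it was lost with no filter on low counts (just over 0.05) and without SP placebo 1 and 2 (adjusted p = 0.0760). Without WT MAT2Ai 2, the lowest library, the edgeR adjusted p was 0.0150 and the log2 fold change 0.32. After MAT2Ai alone the log2 fold change was 0.51 ± 0.13 with an edgeR adjusted p of 0.0505, and under placebo 0.27. Cyp2e1 lies 12.5 Mb from Slc5a2 on chromosome 7.

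Cyp4b1 was also positive in SP mice and did not pass in the main fit. It was at 5545 to 6174 CPM in WT placebo, 4281 to 5953 in WT MAT2Ai, 5615 to 7343 in SP placebo and 5987 to 6891 in SP MAT2Ai, so that the genotypes overlapped under placebo and not after MAT2Ai (3.41% of all genes, 1.72% higher in SP). The log2 fold change averaged over treatments was 0.27 ± 0.07 with an edgeR adjusted p of 0.0507, and after MAT2Ai 0.35 ± 0.09 with 0.0563. Among fits with libraries left out, Cyp4b1 was called without WT MAT2Ai 1, 2 or 4, SP placebo 1, SP MAT2Ai 4, or SP placebo 1 and 2 together, with adjusted p from 0.0276 to 0.0440. Of 8 proximal tubule markers, 7 were positive in SP against WT and 1 rose, Slc22a6, an organic anion transporter (lost without SP placebo 3 or 4, with an adjusted p of at most 0.0519), with a median log2 fold change of 0.096 over the list. The summed level of that list was 19387 to 21128 CPM in WT placebo, 14198 to 20045 in WT MAT2Ai, 19148 to 22325 in SP placebo and 19956 to 21731 in SP MAT2Ai, and its part in the Cyp2e1 and Cyp4b1 values was not tested.

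Liver makes both Cyp2e1 and Cyp2d9 in large amounts, so hepatocyte markers were examined. Alb, which encodes albumin, was at 8.33 to 24.8 CPM in these libraries, and Ahsg, which encodes fetuin, at 0 to 0.796. Of the 12 hepatocyte markers 8 passed the filter, 2 of them positive in SP against WT, with 1 called lower, Serpina1b, an antitrypsin gene, at -1.64 (edgeR adjusted p = 0.0369). That call was kept in 9 of the 20 fits without 1 library (WT placebo 1 or 5, WT MAT2Ai 1, 2, 4 or 5, SP placebo 1 or 5, or SP MAT2Ai 4), with an adjusted p of at most 0.0841. The summed list was at 382 to 793 CPM in WT placebo, 237 to 2041 in WT MAT2Ai, 344 to 657 in SP placebo and 336 to 658 in SP MAT2Ai, and its part in the Cyp2d9 difference was not tested. Ttr, a gene of that list, alone was at 168 to 712 CPM in WT and 268 to 587 in SP libraries. In WT MAT2Ai 2, the library at 2041, Fga, a fibrinogen gene, was at 1619 CPM, against 7.81 to 64.4 in the other libraries. The 8 adrenal cortex markers summed to at most 0.900 CPM.

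Family 1 held 2 members. Cyp1b1, an enzyme of oestrogen and polycyclic hydrocarbon metabolism, was at 7.26 ± 1.21 CPM in WT placebo, 6.43 ± 3.18 in WT MAT2Ai, 4.87 ± 1.35 in SP placebo and 3.09 ± 1.46 in SP MAT2Ai (SD, n = 5). Its log2 fold change in SP against WT was -0.82 ± 0.21 with an edgeR adjusted p of 0.0598, and the genotypes overlapped. Among fits with libraries left out, it was called without WT MAT2Ai 5 (0.0357) or SP MAT2Ai 1 (0.0364). Endothelial markers, of which 6 were tested, were all negative in the same comparison, with a median of -0.39 and 0 called. They summed to 117 to 236 CPM in WT placebo, 75.5 to 221 in WT MAT2Ai, 104 to 173 in SP placebo and 80.6 to 118 in SP MAT2Ai, and their part in the Cyp1b1 value was not tested. Cyp1a1, the classic target of the aryl hydrocarbon receptor, was at 0.621 CPM in WT MAT2Ai 2 and 2.06 to 3.45 in the other libraries, with a log2 fold change of 0.36 in SP against WT (edgeR adjusted p = 0.268).

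The 5 Cyp4a genes did not move together. Cyp4a12a, the main hydroxylase of arachidonic acid to 20-HETE in male mouse kidney, was at 650 ± 64.8 CPM in WT placebo, 581 ± 131 in WT MAT2Ai, 765 ± 87.0 in SP placebo and 760 ± 119 in SP MAT2Ai (SD, n = 5). Its log2 fold change in SP against WT was 0.31 ± 0.10 with an edgeR adjusted p of 0.0985 (0.0496 without WT MAT2Ai 4), whereas its near copy Cyp4a12b, at 7.98 to 12.9 CPM, had 0.051 ± 0.09. The 2 transcripts share 35.8% and 36.2% of their 100-base stretches. Reads from those stretches could have been left uncounted for both genes, which would lower their levels per kb.

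Cyp4a10, Cyp4a31 and Cyp4a14 form the group best known as PPAR alpha targets. Their log2 fold changes in SP against WT were -0.54 ± 0.23, -0.23 ± 0.14 and -2.33 ± 0.66, none called, with edgeR adjusted p values of 0.207, 0.369 and 0.0732. Cyp4a14 was at 9.82, 3.06, 2.94, 1.13 and 1.17 CPM in WT placebo and at 1.503, 63.0, 3.68, 1.14 and 2.04 CPM in WT MAT2Ai. In SP placebo it was at 0.966, 1.14, 1.14, 1.72 and 0.515 CPM, and in SP MAT2Ai at 0.618, 2.32, 2.92, 1.79 and 1.63 CPM. WT placebo 1 and WT MAT2Ai 2 thus stood above all other libraries, as they did for Cyp4a10 (128 and 190 CPM) and Cyp4a31 (48.6 and 54.3 CPM). Without WT MAT2Ai 2, the log2 fold change of Cyp4a14 in SP against WT was -0.95 (0.166), that of Cyp4a10 -0.30 and that of Cyp4a31 -0.12. Without WT MAT2Ai 4 Cyp4a14 was called, at -2.48 with an adjusted p of 0.0376. The PPAR alpha target Pdk4, a kinase that restrains pyruvate oxidation, was at 244 CPM in WT MAT2Ai 2 and at 4.05 to 14.3 in the other libraries.

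**Figure D3:**
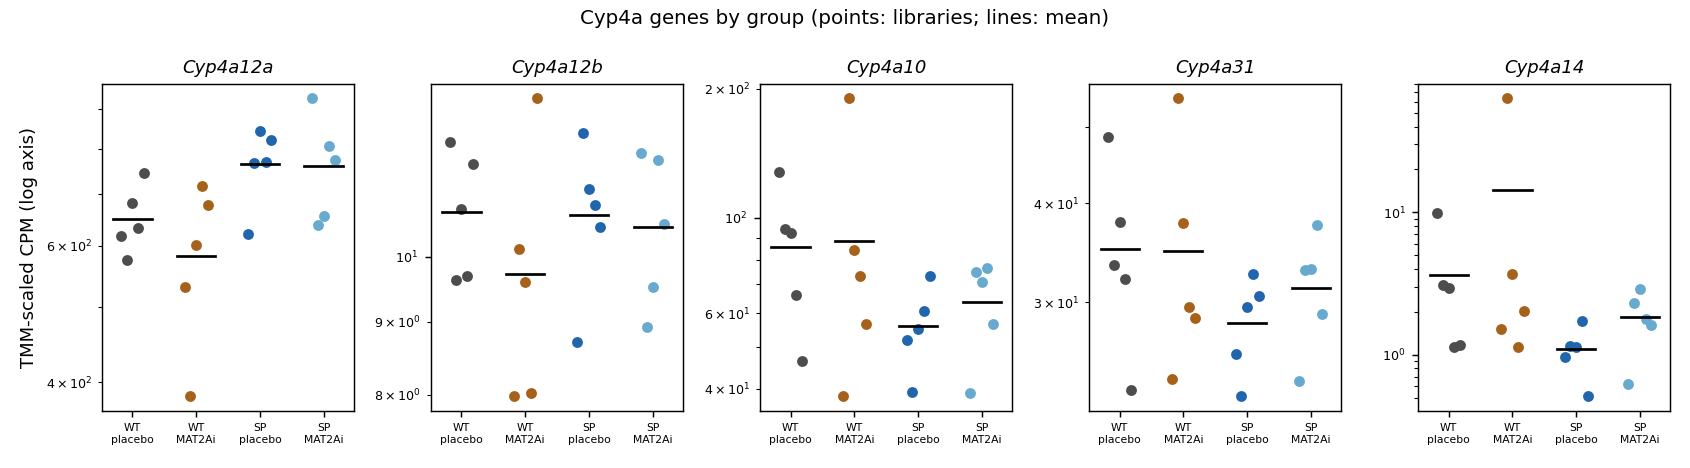
Levels in TMM-scaled CPM of the 5 Cyp4a genes in the 4 groups, each on its own log axis, with 1 point per library and lines for the group means. Cyp4a10, Cyp4a31 and Cyp4a14 are highest in WT MAT2Ai 2 (190, 54.3 and 63.0 CPM) and next in WT placebo 1, unlike Cyp4a12a.

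The remaining subfamilies gave no call in the main fit of SP against WT. The 6 Cyp2j genes, a subfamily in which several enzymes make arachidonate epoxides, had a median log2 fold change of 0.055, from -0.019 for Cyp2j6 to 0.28 for Cyp2j13. Cyp2j5, the most abundant of them, was at 1167 to 1842 CPM and had 0.11 ± 0.06 (edgeR adjusted p = 0.316). The steroid and coumarin hydroxylase genes Cyp2a4 and Cyp2a5 had -0.23 and -0.44 (-0.14 and -0.27 without WT placebo 1), and they share 11.2% and 14.4% of their 100-base stretches with other genes. The 5 Cyp4f genes, some of which inactivate leukotrienes, ran from -0.39 for Cyp4f14 to 0.083 for Cyp4f15, and the most abundant, Cyp4f13, was at 24.8 to 32.9 CPM with 0.053 ± 0.05. Cyp4v3, a fatty acid hydroxylase, had -0.22 and was called without WT MAT2Ai 2, 3 and 4 (0.0259). Cyp2b10, a target of the receptor CAR, had -0.36 and turned to 0.12 without WT MAT2Ai 4. Cyp2c23, an epoxygenase, had -0.41 (-0.27 without WT placebo 1), and Cyp2f2, Cyp2s1, Cyp2u1 and Cyp3a13 lay between -0.15 and 0.093.

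**Figure D4:**
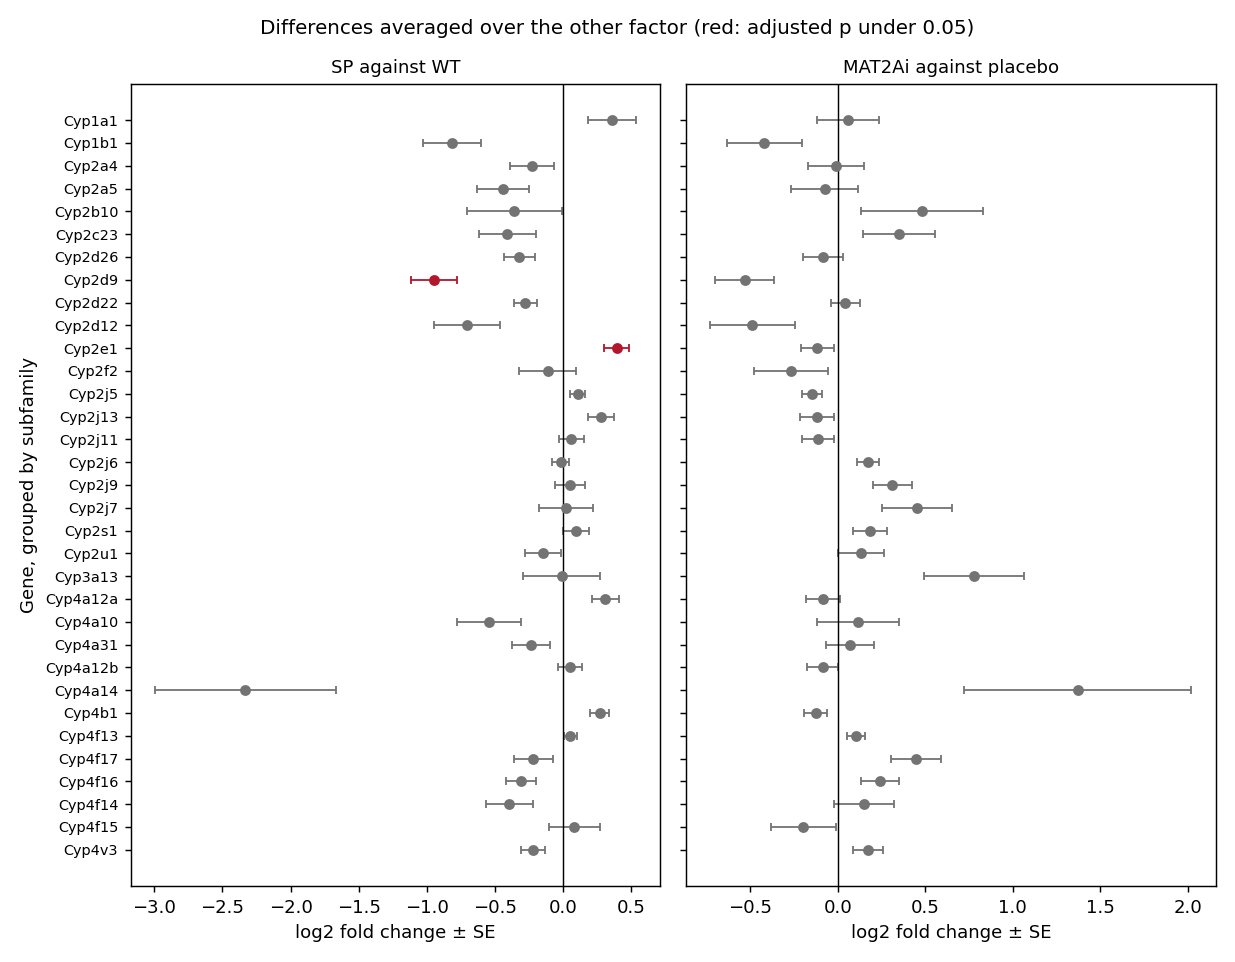
Log2 fold change ± SE of the 33 P450 genes, grouped by subfamily, for SP against WT (left) and MAT2Ai against placebo (right), each averaged over the other factor. Red points mark an adjusted p under 0.05, which are Cyp2d9 at -0.95 and Cyp2e1 at 0.39 in the left panel, with 0 in the right panel.

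The effect of the inhibitor was asked in each genotype and over both. No member was called in SP mice, in WT mice or in the average, where 0.0186%, 0% and 0.223% of all genes were called. By edgeR, an unadjusted p under 0.05 was reached by 3 members in SP mice, 11 in WT mice and 9 in the average, against 5.92%, 15.7% and 14.7% of all genes. DESeq2, limma-voom and edgeR's likelihood ratio test also called 0 members in each. Of all genes, DESeq2 called 22 higher and 5 lower in SP mice. It called 162 and 53 in WT mice and 133 and 59 in the average. In the same order the likelihood ratio test called 18 and 2, 155 and 23, and 114 and 41. With limma-voom these were 14 and 3, 2 and 0, and 47 and 23. The median log2 fold change over the members was 0.0029 in SP mice, -0.0014 in WT mice and 0.056 in the average, with 18 positive and 15 negative in the last.

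In the average the members with the smallest p values were Cyp2d9 (-0.53 ± 0.17, edgeR adjusted p = 0.206), Cyp4f17 (0.45 ± 0.14, 0.209), Cyp2j9 (0.31 ± 0.11, 0.242) and Cyp3a13 (0.78 ± 0.28, 0.253). In SP mice they were Cyp3a13 (0.89 ± 0.40), Cyp2d9 (-0.51 ± 0.24), Cyp1b1 (-0.66 ± 0.31) and Cyp2c23 (0.57 ± 0.30), all with adjusted p of 0.833 or more. In WT mice they were Cyp4f17 (0.66 ± 0.20), Cyp2j9 (0.42 ± 0.16), Cyp2j6 (0.24 ± 0.09) and Cyp2j7 (0.71 ± 0.29), with edgeR adjusted p from 0.170 to 0.247. Cyp4f17 was at 3.88 to 4.88 CPM in WT placebo and 5.06 to 13.7 in WT MAT2Ai, so these groups did not overlap, as was true of 2.19% of all genes (1.52% higher). Without WT MAT2Ai 2 its log2 fold change was 0.28 in WT mice and 0.26 in the average. Cyp2e1 differed by 0.0029 ± 0.13 in SP mice and by -0.24 ± 0.13 in WT mice (-0.11 without WT MAT2Ai 2).

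The interaction of genotype and treatment, the test of whether MAT2Ai acted differently in SP and WT mice, called 0 members and 0 of all genes, and 0 members reached an unadjusted p of 0.05, against 5.59% of all genes by edgeR. The smallest p was that of Cyp2b10 at -1.35 ± 0.70 with an edgeR adjusted p of 0.842, where WT MAT2Ai 4 was at 26.9 CPM and the other WT MAT2Ai libraries at 2.43 to 8.29. Without that library the interaction was -0.40. Next came Cyp2d22 (-0.25 ± 0.16), Cyp4f17 (-0.43 ± 0.29, and -0.054 without WT MAT2Ai 2) and Cyp2e1 (0.24 ± 0.19, and 0.11 without WT MAT2Ai 2). For Cyp2d9 the interaction was 0.032 ± 0.34.

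The genes around the P450 system were examined in 6 lists. Of all genes tested, 1.33% were called in SP against WT, 0.607% higher and 0.724% lower. In SP against WT, redox partners and haem supply had 0 of 20 tested genes called, with 16 positive, and the smallest p values were those of the haem oxygenase gene Hmox1 (-1.52 ± 0.47, edgeR adjusted p = 0.0932) and of Cyb5r3 (0.16 ± 0.05, 0.119). Hmox1 was at 456 CPM in WT MAT2Ai 1 and 14.9 to 96.9 in the other libraries, and its log2 fold change was -0.69 without WT MAT2Ai 1. It was called without WT MAT2Ai 4 (0.0415). Of 22 tested regulators of P450 transcription 1 fell, Nr1i2, the xenobiotic receptor PXR, at -0.87 ± 0.19 (edgeR adjusted p = 0.0348), from 1.52 to 4.73 CPM in WT and 1.01 to 1.92 in SP mice. Of 16 epoxide hydrolase and arachidonate genes 1 fell, Ptgs2, cyclooxygenase 2, at -1.35 ± 0.29 (0.0308). Of 19 tested PPAR alpha targets outside the P450 genes 1 rose, Ehhadh, a peroxisomal beta-oxidation enzyme, at 0.37 ± 0.06 (0.0176). Of 10 sex-biased kidney genes 1 fell, Slc7a12, a transporter gene higher in females, at -1.66 ± 0.32 (0.0212). In that list 6 were positive, and 7 reached an unadjusted edgeR p of 0.05, against 19.6% of all genes. Mean levels were higher in SP than in WT mice for Kap, Odc1, Slco1a1 (711 CPM in WT and 1070 in SP), Acsm3, Slc7a13 and Gusb. They were lower for Cyp7b1 (162 and 100), Slc7a12, Prlr and Abcc3. Of 12 tested P450 genes of other families 0 were called, and Cyp27b1, the vitamin D 1 alpha-hydroxylase, stood at -1.501 ± 0.38 (0.0507, and called without SP placebo 1, SP MAT2Ai 4 or WT MAT2Ai 2, 3 or 5), and Cyp39a1, an oxysterol hydroxylase, at 0.25 ± 0.08 (0.0964). With 1 library left out, Ehhadh was called in 20 of 20 fits, Slc7a12 in 18 (lost without SP placebo 3 or 4), Ptgs2 in 14 (lost without SP placebo 3 or 4, SP MAT2Ai 2 or 5, or WT placebo 2 or 3) and Nr1i2 in 11 (lost without SP placebo 2, 3 or 4, SP MAT2Ai 1, 2, 3 or 5, or WT placebo 2 or 4), with edgeR adjusted p of at most 0.0458, 0.0519, 0.0764 and 0.0841. Ptgs2 was also lost without WT MAT2Ai 2, 3 and 4 (0.150).

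In the MAT2Ai average the smallest p values among lists with 0 called were those of Cpox and Hmox1, Cebpb and Nfe2l2, Pdk4 and Plin2, Slco1a1 and Slc7a13, and Cyp26b1 and Cyp51, with edgeR adjusted p from 0.163 to 0.461. With 0.223% of all genes called, the lists held 1 called gene, Ephx1, microsomal epoxide hydrolase, which opens P450-made epoxides. It was at 21.4 to 26.4 CPM in WT placebo, 29.2 to 53.2 in WT MAT2Ai, 21.2 to 25.3 in SP placebo and 28.0 to 38.1 in SP MAT2Ai. All 10 MAT2Ai libraries lay above all 10 placebo libraries, which was true of 0.0805% of all genes. The log2 fold change was 0.63 ± 0.09 with an edgeR adjusted p of 0.00479. It was called with each of the 20 libraries left out, and lost without SP placebo 1 and 2 together (0.0558). In SP MAT2Ai against WT MAT2Ai the lists held Cyp27b1 at -2.23, Ptgs2 and Abcc3, an organic anion pump higher in females, at -1.67 each, and Ehhadh at 0.61, with edgeR adjusted p of 0.0432, 0.0429, 0.0441 and 0.0223. Of all genes, 1.84% were called there. In that comparison Cyb5r3 (0.29), Hmox1 (-2.50), Cebpb (-1.39) and Nr1i2 (-0.86) led the lists with 0 called. Without WT MAT2Ai 1 Hmox1 was at -0.84, and without WT MAT2Ai 2, where Cebpb was at 145 CPM against 13.5 to 74.8 in the other libraries, Cebpb was at -0.70 and Nr1i2 at -0.52. Over the 10 libraries left out there, Ehhadh was called in 8 fits (lost without SP MAT2Ai 3 or 5), Cyp27b1 in 5 (lost without SP MAT2Ai 1, 2, 3 or 5 or WT MAT2Ai 4, with -1.37 without the last, where it was at 40.0 CPM), Abcc3 in 4 (lost without SP MAT2Ai 1, 2, 3 or 5 or WT MAT2Ai 2 or 3) and Ptgs2 in 3 (lost without any 1 SP MAT2Ai library or WT MAT2Ai 2 or 3).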

How the data were processed

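Kidney cortex poly(A) RNA was measured in 20 directional libraries. The authors deposited raw counts per gene from htseq-count after STAR alignment to mm10. The strand setting of the counting is not given in the sources used here. Symbols came from GENCODE M21 for 42462 of 43430 genes, 968 had none, and htseq summary lines were left out.

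Genes were filtered with filterByExpr, TMM-scaled and tested with edgeR 4.0.16 (glmQLFit and glmQLFTest, R 4.3.3), all 20 libraries in 1 fit with a coefficient per group. P values were adjusted by the Benjamini-Hochberg method over 16152 genes within each of 7 comparisons and not across them. The SE is the log2 fold change divided by the square root of F. The comparisons share libraries. A call is an adjusted p under 0.05. Alternatives were RLE factors, no filter, DESeq2 1.42.0, limma-voom (limma 3.58.1), a likelihood ratio test, compared groups alone, a replicate block and libraries left out. The procedure was tested on simulated counts.

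Members and gene lists were chosen with earlier results of these data known. Named genes were the most abundant member of each subfamily per kb, Cyp2d9, Cyp2e1, the Cyp4a genes, every called member and the 4 smallest p values per comparison, the 3 members nearest the minimum on each side, and called genes of the other lists or their 2 smallest p values. The 6 genes plotted by library, and Alb, Ahsg, Ttr and Fga, were chosen after their values were seen, and the sex-biased list was named in full. The promoters shown and the 9 patterns were settled after expression results, and in part motif matches, had been seen. The labels give replicate numbers and no litter or cage, so p values measure the spread between these samples.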

Additional observations from a re-analysis of the deposited data

Results flagged for a closer look

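Of the 132 combinations of a member and a group, 10 held a library far from the other 4, measured as its gap to the nearest of them over the range of the group, while chance flags about 1 in 20 groups. WT placebo 1 held 4 of these flags: Cyp2a5 at 306 CPM (others 122 to 134), Cyp4a14 at 9.82 (1.13 to 3.06), Cyp4v3 at 8.08 (6.39 to 6.56) and Cyp2j7 at 0.417 (0.641 to 0.711). WT MAT2Ai 2 also held 4: Cyp2e1 at 2272 CPM (others 3753 to 4300), Cyp4a14 at 63.0 (1.14 to 3.68), Cyp4f17 at 13.7 (5.06 to 5.73) and Cyp2j7 at 0.326 (1.17 to 1.25). Cyp2b10 was at 26.9 CPM in WT MAT2Ai 4 (others 2.43 to 8.29), and Cyp2s1 at 11.7 in SP MAT2Ai 1 (18.9 to 20.2).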

How the results depend on the processing

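In the 3 comparisons of MAT2Ai with placebo, in SP placebo against WT placebo and in the interaction, 0 members were called under every setting run. In SP placebo against WT placebo, DESeq2 and the likelihood ratio each called 2 of all genes higher and 5 lower. Voom weights gave 2 and 2 there. In the interaction DESeq2 and the likelihood ratio each called 0 higher and 1 lower, and voom weights 0 and 0. In SP against WT averaged over treatments the 2 calls became 1 with no filter on low counts or with the replicate block (Cyp2e1 at an adjusted p of 0.0676), 4 without WT MAT2Ai 2, 3 and 4, 9 with voom weights, and 6 with DESeq2 or the likelihood ratio, and 1 to 6 when 1 library was left out. Calls over all genes moved too, from 98 higher and 117 lower in the main fit. They were 65 and 86 with no filter, 60 and 54 with the replicate block and 272 and 189 without those WT MAT2Ai libraries. They were 624 and 717 with voom weights, 344 and 550 with DESeq2 and 214 and 463 with the likelihood ratio. They ran from 9 and 11 without SP placebo 4 to 313 and 261 without WT MAT2Ai 4. In SP MAT2Ai against WT MAT2Ai the 1 call became 0 with RLE factors, no filter, the replicate block (Cyp2d9 at 0.0795), the compared groups alone or without SP placebo 1 and 2, 5 with DESeq2, 3 with voom weights and 6 with the likelihood ratio, and 0 to 4 when 1 library was left out. Without WT MAT2Ai 2, 3 and 4 there was again 1 call, of a member other than Cyp2d9, with 59 of all genes higher and 90 lower. Over all genes 298 were called there in the main fit. Genes called higher and lower were 111 and 189 with RLE factors, 37 and 51 with the replicate block and 0 and 2 with the compared groups alone. They were 466 and 737 with DESeq2, 154 and 243 with voom weights and 260 and 685 with the likelihood ratio. They ran from 0 and 0 without SP MAT2Ai 3 to 345 and 429 without WT MAT2Ai 4. Replicate numbers did not pair mice: over 30 pairs the mean correlation was -0.0158, with 4 over 0.1 and 6 of 20 libraries closest to their own number. Near zero, Cyp2e1 in SP MAT2Ai against SP placebo turned to -0.041 with voom weights and to -0.017, -0.058, -0.025 and -0.0097 without SP placebo 1, SP placebo 5, SP MAT2Ai 2 and SP MAT2Ai 3 (range over all 10 left out -0.058 to 0.053), and Cyp4a12b in SP against WT to -0.00029 without WT MAT2Ai 2, 3 and 4. The causes were not tested.

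The gene lists, examined in SP against WT averaged over treatments, a choice made after their counts in all 7 comparisons had been seen, moved as follows. The calls over all genes given above for this comparison moved under the same settings, and without SP placebo 1 and 2 they were 87 higher and 102 lower. Redox partners went from 0 to 1 with DESeq2, voom weights, the likelihood ratio or without WT MAT2Ai 2, 3 and 4, and 0 to 2 when 1 library was left out. Regulators went from 1 to 2 with the first 3 of these and to 0 with the replicate block, and 0 to 2. Arachidonate genes went from 1 to 2 with DESeq2 or the likelihood ratio, 3 with voom weights, and 0 with the replicate block or without WT MAT2Ai 2, 3 and 4, and 0 to 2. PPAR alpha targets went from 1 to 2 with DESeq2 or without those libraries and to 3 with voom weights, and 1 to 2. Sex-biased genes went from 1 to 5 with DESeq2 or the likelihood ratio, 6 with voom weights and 4 without those libraries, and 0 to 6. Other P450 genes went from 0 to 2 with DESeq2 or without SP placebo 1 and 2, and to 1 with voom weights, the likelihood ratio or without WT MAT2Ai 2, 3 and 4, and 0 to 1 when 1 library was left out. Counts limit the lowest members, at under 1 CPM.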
